A study of Mus musculus with 2 samples.

Results

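The enzyme genes of central carbon metabolism were compared between a clone of LM8 cells transfected with human PHD4 and a control clone. LM8 is a mouse osteosarcoma cell line that spreads to the lung. The set comprised 45 genes chosen by their place in glycolysis with lactate export (19 genes), the pentose phosphate pathway (7), the pyruvate dehydrogenase complex (3) and the citrate cycle (16), out of 12393 genes that the array annotation names through probe sets of a single symbol. The hPHD4 clone was a stable transfectant with full-length human PHD4 cDNA in pcDNA3.1. The control clone carried pcDNA3.1 without insert, and both were under selection with 0.5 mg/ml G418. Each group was therefore 1 clone measured on 1 Affymetrix array made from 5 µg of total RNA, so differences between clones of any origin cannot be told apart from an effect of the transgene. Without replicates no value given here has a test or a p-value.

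Glycolysis breaks glucose down to pyruvate in the cytosol, and lactate dehydrogenase turns pyruvate into lactate, which monocarboxylate transporters carry out of the cell. The pentose phosphate pathway branches from it to make NADPH and ribose phosphate, and the pyruvate dehydrogenase complex passes pyruvate into the citrate cycle in mitochondria. Many glycolytic genes are known targets of the hypoxia-inducible factor HIF-1, whose alpha subunit is marked for degradation by prolyl hydroxylases. PHD4 is a prolyl hydroxylase of the endoplasmic reticulum membrane related to those enzymes, and tumour cells are known for high glycolytic activity.

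Values are MAS5 signals, a summary of brightness per probe set, and a log2 ratio is the log2 signal of the hPHD4 clone minus that of the control clone. Where a pair of signals is given for a gene, that of the hPHD4 clone comes before that of the control clone. The arrays had nearly equal trimmed mean signals, 500.2 in each. Probe sets were taken as measured if they exceeded a floor on both arrays, the 40th percentile of each, which was a signal of 81.1 for the hPHD4 array and 67.8 for the control array. At least 1 such probe set was found for 7452 genes. The value of a gene is the mean log2 ratio over its measured probe sets. Probe sets of the same gene scattered around their mean log2 ratio with a pooled SD of 0.28 in the brightest of 3 equal groups of genes, 0.37 in the middle group and 0.40 in the dimmest, which covers probe set error only. This SD is the scatter of a single probe set. Gene values were compared with it without adjustment for the number of probe sets they average. P4htm, the mouse gene for PHD4, had 0 probe sets of its own, and the array carries mouse probes, so the transgene was not checked. All 6 osteoblast lineage markers on the array were above the floor in both clones, among them Sp7 and Alpl. Of 5 epithelial markers 1 exceeded the floor in the hPHD4 clone against 0 in the control clone, and of 6 leukocyte markers 4 and 3 did, with summed signals of 610.3 and 373.4; Ptprc, the defining leukocyte marker, was under the floor in both, and no marker signal was at 0. Array scaling removes any difference in total RNA per cell, and a change in the share of cells and in RNA per cell cannot be told apart.

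Of the 45 genes, 40 were measured in both clones, 22 of them on at least 2 probe sets and 18 on 1. Eno1, Gpi1 and G6pdx had no probe set assigned to their symbol alone and were not analysed here, Gapdh was read from control probe sets only, and the probe set of Eno2 was under the floor in the control clone. Most measured genes were slightly higher in the hPHD4 clone. The log2 ratio was above 0 for 30 of the 40, or 75%, where 53.6% of all measured genes lay above 0. The median was 0.17 (1.12-fold), against 0.03 for all measured genes, and the values ran from −0.60 to 0.98. Large differences were few: 2 genes, Idh1 and Pfkp, were at least 1.5-fold higher, or 5% against 8.94% of all measured genes, and 1 gene, Sdhd, was at least 1.5-fold lower, or 2.5% against 5.22%. Against the probe set SD of their brightness, 12 genes were higher by more than it (30%, against 20.4% of all measured genes) and 5 were lower by more than it (12.5%, against 15.1%). All 12 were in the brightest group, whose own share beyond the SD is not given here. Pfkl exceeded the SD only marginally, and the probe sets of Mdh1 disagreed. Relative to the medians of their chromosomes, Pfkl, Pgam1, Taldo1, Pdhb and Fh1 fell within it, at 0.25, 0.15, 0.20, 0.24 and 0.24. On the same scale Aldoa and Tkt passed it on the lower side, at −0.31 each. Of all 7452 measured genes, 2800 rested on at least 2 probe sets, against 22 of these 40, so the precision of the gene values differs.

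**Figure D1:**
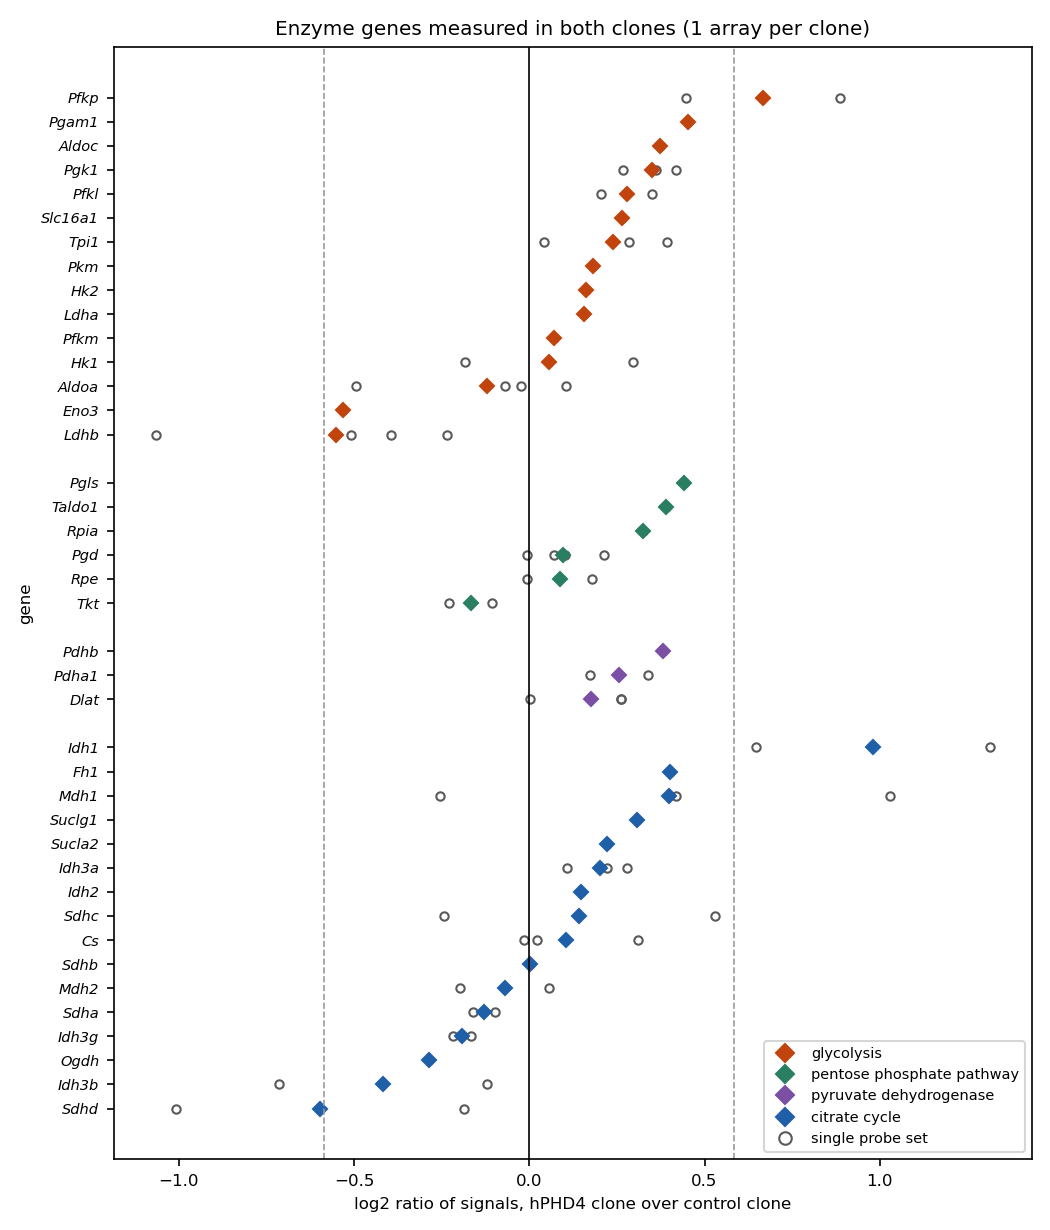
Log2 ratios of the 40 measured enzyme genes (x axis) by pathway; diamonds are gene values, open circles single probe sets where a gene has several, and dashed lines mark 1.5-fold in either direction. Most diamonds lie between 0 and 0.45, Idh1 and Pfkp lie beyond the upper line, and Ldhb, Eno3 and Sdhd lie lowest.

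The entry steps of glycolysis differed little, except for the platelet-type phosphofructokinase. Hexokinases trap glucose in the cell by phosphorylation. Hk1 had signals of 376.6 and 781.6 on its 2 probe sets in the hPHD4 clone and of 427.4 and 636.8 in the control clone, a mean log2 ratio of 0.06 with the probe sets on opposite sides of 0. Hk2, the inducible hexokinase, had signals of 651.1 and 582.1 and a ratio of 0.16. Phosphofructokinase catalyses the committed step and has 3 isozyme subunits. Pfkp had signals of 3176 and 840.0 on its 2 probe sets in the hPHD4 clone, where the control clone had 2331 and 454.5. Both probe sets were higher in the hPHD4 clone, and the mean log2 ratio of 0.67 (1.59-fold) exceeded the probe set SD of 0.28. The liver-type subunit Pfkl had signals of 2246 and 1700 against 1949 and 1334, a ratio of 0.28. The muscle-type subunit Pfkm, at 1026 against 977.3, had a ratio of 0.07. The ratio of Pfkp thus exceeded that of Pfkl by 0.39 and that of Pfkm by 0.60 on the log2 scale.

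Aldolase splits fructose bisphosphate, and its main form Aldoa was among the few glycolytic genes with a value below 0. The 4 probe sets of Aldoa, all of a type that can cross-hybridise with similar sequences, had log2 ratios from −0.49 to 0.10 and a mean of −0.12. That mean was within the SD of 0.28, and the brightest probe set alone gave −0.02. Relative to the median of its chromosome, 7, Aldoa was at −0.31, lower by more than that SD. The brain-type form Aldoc lay at the floor, at 88.1 and 68.0, with a ratio of 0.37 that was smaller than the SD of 0.40 in the dimmest group. Tpi1, the triose phosphate isomerase, had signals of 10826, 4980 and 11274 in the hPHD4 clone and of 8884, 4833 and 8593 in the control clone. All 3 probe sets of Tpi1 were higher, with a mean ratio of 0.24, which is less than the SD of 0.28 for a single probe set.

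In the lower part of glycolysis, where ATP is made, Pgk1 and Pgam1 were higher by more than the probe set SD of 0.28, Pkm was within it and Eno3 was lower. Pgk1, the phosphoglycerate kinase, which makes ATP, had signals of 14225, 13951 and 2997 on its 3 probe sets in the hPHD4 clone and of 11820, 10859 and 2242 in the control clone. All 3 probe sets were higher by similar amounts, at 0.27, 0.36 and 0.42 on the log2 scale (SD 0.08) and a mean of 0.35 (1.27-fold). Pgam1, the phosphoglycerate mutase, had signals of 7263 and 5311 and a ratio of 0.45 (1.37-fold); its chromosome, 19, had a median ratio of 0.31 over 281 measured genes, and relative to that median Pgam1 was at 0.15. Pkm, the pyruvate kinase of most tissues, had signals of 9945 and 8769 and a ratio of 0.18, less than the SD. The enolases could be followed in part. Eno3, the muscle enolase, was lower in the hPHD4 clone, at 546.1 against 788.8, with a ratio of −0.53 (1.44-fold lower) on 1 probe set and an SD of 0.37 at its brightness. Relative to the median of its chromosome, 11, Eno3 was at −0.60. Eno2, the neuronal enolase, was at 100.1 in the hPHD4 clone and at 65.7, under the floor, in the control clone, and entered no count.

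Gapdh, the dehydrogenase between aldolase and Pgk1, was read from 3 control probe sets placed along its transcript. Signals at the 3′ end, the middle and the 5′ end were 19426, 20911 and 19856 in the hPHD4 clone, against 20581, 21276 and 22583 in the control clone. All 3 were lower in the hPHD4 clone, by small amounts, with log2 ratios of −0.08, −0.02 and −0.19; after quantile normalization these were 0.03, 0.10 and −0.063 and after loess correction 0.03, 0.09 and −0.073, so that the sign depended on the scaling. A further 2 probe sets name Gapdh together with its pseudogenes, and 1 names Hk1 together with ribosomal protein genes; these entered no value.

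The lactate dehydrogenase subunits lay on opposite sides of 0. Ldha encodes the subunit that favours the formation of lactate, and Ldhb the subunit typical of oxidative tissues. Ldha had a signal of 23112 in the hPHD4 clone and of 20726 in the control clone, a log2 ratio of 0.16 on 1 probe set, smaller than the SD of 0.28 and close to the median of 0.19 on its chromosome, 7. Ldhb had signals of 882.5, 513.4, 834.8 and 759.9 on its 4 probe sets in the hPHD4 clone and of 1038, 1075, 1098 and 1082 in the control clone. All 4 probe sets of Ldhb were lower in the hPHD4 clone, with ratios of −0.23, −1.07, −0.40 and −0.51 and a mean of −0.55 (1.47-fold lower; SD 0.36). The ratios of Ldha and Ldhb differed by 0.71 on the log2 scale. Slc16a1, the lactate transporter MCT1, had signals of 2912 and 2423 and a ratio of 0.27, just under the SD.

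**Figure D2:**
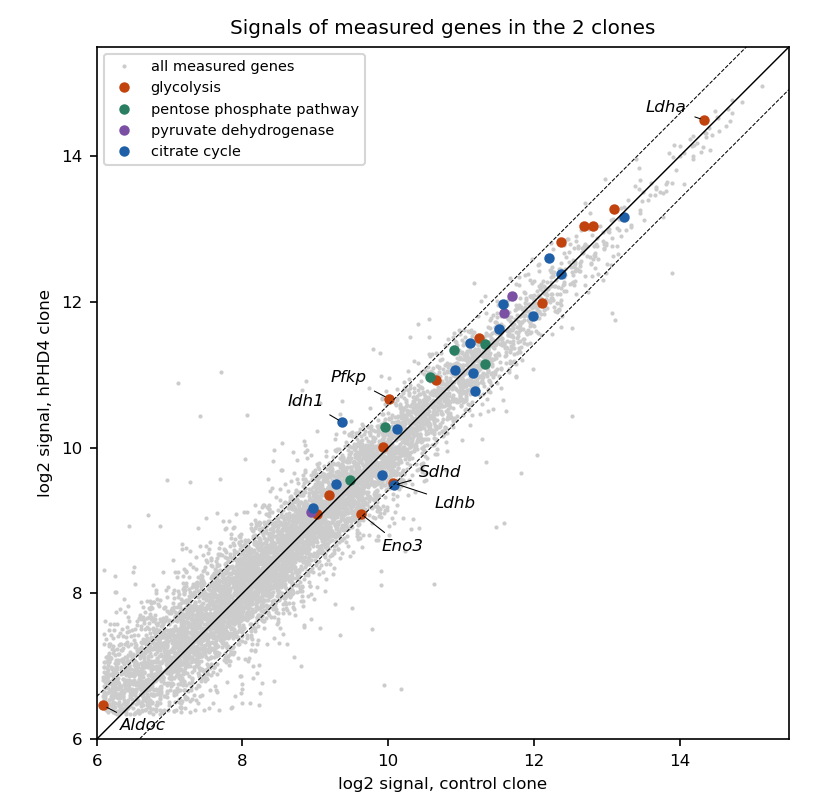
Log2 signal of each measured gene in the control clone (x axis) and in the hPHD4 clone (y axis), 1 array each; grey points are all 7452 measured genes, coloured points the enzyme genes, the solid line equality and the dashed lines 1.5-fold. Ldha lies near the top of the range close to equality, Pfkp and Idh1 lie above the upper line, and Ldhb, Sdhd and Eno3 lie near the lower line.

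The promoters of the members were set beside their ratios, because HIF-1 binds DNA at a short core sequence. RefSeq windows of 300 bases (250 before to 50 after each gene start, assembly GRCm38.p6) were found for 43 of the 45 genes and searched on both strands for ACGTG and GCGTG. The E-box that Myc and other factors bind, CACGTG, contains ACGTG on both strands and counts as 2 matches. The windows of 4 members are shown, with every match in capitals: Ldha and Pgk1, both known HIF-1 targets, and Pfkp and Ldhb, the glycolysis genes with the highest and the lowest log2 ratio. For Ldha, the window with more matches of its 2 is given.
Ldha (chr7:46845554-46845853, plus strand): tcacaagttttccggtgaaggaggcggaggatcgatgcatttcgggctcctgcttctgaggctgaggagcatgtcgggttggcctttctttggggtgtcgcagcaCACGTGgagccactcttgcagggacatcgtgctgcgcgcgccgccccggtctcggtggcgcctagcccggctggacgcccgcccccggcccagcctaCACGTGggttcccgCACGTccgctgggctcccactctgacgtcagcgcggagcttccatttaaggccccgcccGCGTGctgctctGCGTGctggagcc
Pgk1 (chrX:106186850-106187149, plus strand): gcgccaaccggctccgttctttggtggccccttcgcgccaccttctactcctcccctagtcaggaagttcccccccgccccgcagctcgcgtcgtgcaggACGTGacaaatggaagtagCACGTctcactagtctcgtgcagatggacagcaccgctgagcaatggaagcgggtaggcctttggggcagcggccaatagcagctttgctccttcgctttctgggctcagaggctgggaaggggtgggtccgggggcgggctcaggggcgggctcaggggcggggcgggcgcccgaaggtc
Pfkp (chr13:6648722-6649021, minus strand): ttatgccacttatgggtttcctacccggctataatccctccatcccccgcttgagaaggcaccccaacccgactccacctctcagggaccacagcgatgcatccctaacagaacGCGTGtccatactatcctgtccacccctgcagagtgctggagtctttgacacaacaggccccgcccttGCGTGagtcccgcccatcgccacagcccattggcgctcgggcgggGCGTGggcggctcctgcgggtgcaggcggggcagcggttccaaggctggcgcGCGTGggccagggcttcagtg
Ldhb (chr6:142507908-142508207, minus strand): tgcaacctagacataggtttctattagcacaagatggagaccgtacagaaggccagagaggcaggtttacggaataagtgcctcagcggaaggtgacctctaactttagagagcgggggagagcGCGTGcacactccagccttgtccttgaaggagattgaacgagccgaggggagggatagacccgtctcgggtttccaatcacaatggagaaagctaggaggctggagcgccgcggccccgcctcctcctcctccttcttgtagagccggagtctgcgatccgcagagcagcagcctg

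The window of Ldha held 7 matches, 4 of them in its 2 CACGTG, and that of Pgk1 held 2, both ACGTG. The windows of Pfkp held 4 matches and of Ldhb 1, all of them GCGTG. The other core, ACGTG, was present for 9 of 13 members known as HIF-1 targets (69.2%) and for 8 of the 30 other members with a window (26.7%). It was present for 21.8% of all genes with a window, measured or not. Among measured genes alone, 1888 had ACGTG and 4256 did not. The measured HIF-1 targets numbered 8 with it and 2 without, and the other measured members 7 and 21. Either motif was present for 81.4% of the members and 46.7% of all genes with a window, measured or not. The share of measured genes with either motif is not given here, so the 2 shares are not a like comparison. A gene was counted if any of its windows held a match. The 43 members had 61 windows, and all 27025 genes had 32851. A match is a description of these letters and not a binding site. The 15 measured members with ACGTG had a median log2 ratio of 0.16, the 23 without it 0.18, and the same split over all measured genes gave medians of 0.02 and 0.04.

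Members known from textbooks as HIF-1 targets were described apart. Of the 13, 10 were measured, and 9 of them were above 0 (90%, against 53.6% of all measured genes). Aldoc, among those 9, lay at the floor. The 3 targets outside this count were Eno1 and Gpi1, without a probe set of their own, and Gapdh. The control probe sets of Gapdh were all below 0 as deposited, with a sign that depended on the scaling. Of the 10, 0 were beyond 1.5-fold in either direction, against 8.94% higher and 5.22% lower of all measured genes. The median of these targets was 0.21, with values from −0.12 (Aldoa) to 0.45 (Pgam1). The 30 other measured members had a median of 0.14, and 21 of them were above 0 (70%). The 5 measured glycolysis genes outside the targets, among them Pfkp, Eno3 and Ldhb, had a median of 0.07, and 3 of them were above 0 (60%). In glycolysis as a whole, 12 of 15 measured genes were above 0 (80%, against 53.6% of all measured genes) and the median was 0.18. In that group 1 gene was at least 1.5-fold higher (6.67%, against 8.94%).

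Of the pentose phosphate genes, 5 of 6 measured members were above 0 (83.3%, against 53.6% of all measured genes), and the median log2 ratio was 0.21. Beyond 1.5-fold lay 0 of the 6 in either direction, against 8.94% higher and 5.22% lower of all measured genes. Of the oxidative branch, which makes NADPH, Pgls, the lactonase, had signals of 2589 and 1908 and the highest ratio of the pathway, 0.44 (1.36-fold). Pgd, the phosphogluconate dehydrogenase, had 4 probe sets with ratios from −0.01 to 0.21 and a mean of 0.09. Of the branch that interconverts sugars, Rpia, the ribose phosphate isomerase, had signals of 1245 and 994.9 and a ratio of 0.32. Taldo1, the transaldolase, had signals of 1999 and 1526 and a ratio of 0.39 (1.31-fold), on chromosome 7, where the median ratio was 0.19. Tkt, the transketolase, was the only measured member of the pathway below 0, with signals of 3666 and 1418 on its 2 probe sets against 3949 and 1661, and a mean of −0.17. Relative to the median of its chromosome, 14, Tkt was at −0.31, lower by more than the SD of 0.28. Rpe, the epimerase, had ratios of 0.18 and −0.01 on its 2 measured probe sets and a mean of 0.09, which fell below 0 in 3 of 11 alternative settings. Its other probe set lay under the floor in both clones, at 16.6 and 57.6. Pgls, Rpia and Taldo1, 50% of the measured members against 20.4% of all measured genes, were higher by more than the probe set SD of 0.28, each on 1 probe set; relative to its chromosome Taldo1 was at 0.20, within that SD.

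All 3 genes of the pyruvate dehydrogenase complex were above 0 (100%, against 53.6% of all measured genes), with a median of 0.26. Pdha1, which encodes the alpha subunit of the decarboxylase, had signals of 4882 and 2789 on its 2 probe sets against 4332 and 2206, a mean ratio of 0.26. Pdhb, the beta subunit, had signals of 4328 and 3320 and a ratio of 0.38 (1.30-fold) on its measured probe set; the other, at 72.4 and 13.5, was under the floor in both clones. Dlat, the acetyltransferase core, had 3 probe sets with ratios of 0.00, 0.26 and 0.26 and a mean of 0.18. Of the 3 genes, Pdhb alone exceeded the SD at its brightness, 0.28, but not relative to the median of its chromosome, 14, where it was at 0.24, nor with dim signals raised to a common floor, at 0.19.

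The citrate cycle group, which includes cytosolic enzymes, held both the highest and the lowest ratio of all 40 genes. It had 10 of 16 genes above 0 (62.5%, against 53.6% of all measured genes) and 1 gene beyond 1.5-fold on either side (6.25%, against 8.94% higher and 5.22% lower). The median of 0.12 turned to −0.047 with the brightest probe set per gene and to −0.071 without _x_at and _s_at probe sets. Idh1, the NADP-dependent isocitrate dehydrogenase of the cytosol and peroxisomes, had signals of 761.8 and 2235 on its 2 probe sets in the hPHD4 clone and of 486.6 and 898.1 in the control clone. Both probe sets were higher, with log2 ratios of 0.65 and 1.32 and a mean of 0.98 (1.97-fold; SD 0.47), and both are of a type that matches several transcripts. Its chromosome, 1, had a median of 0.16, and relative to that median Idh1 was at 0.82. Idh2, the mitochondrial NADP-dependent form, had signals of 2149 and 1941 and a ratio of 0.15, or −0.039 relative to the median of its chromosome, 7. As measured, the ratios of Idh1 and Idh2 differed by 0.83.

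The NAD-dependent isocitrate dehydrogenase of the cycle proper is built of 3 kinds of subunit, with values on both sides of 0. Idh3a, the catalytic subunit, was above 0 on all 3 probe sets, with a mean of 0.20, within the SD of 0.37 at its brightness. Idh3b was below 0 on both probe sets, with signals of 1280 and 2389 against 2099 and 2597, ratios of −0.71 and −0.12 and a mean of −0.42 (1.33-fold lower). Relative to the median of its chromosome, 2, Idh3b was at −0.53, and read from the brighter probe set alone it was −0.12. Idh3g was below 0 on both, with a mean of −0.19, within the SD of 0.28. Ogdh, the decarboxylase of the oxoglutarate complex, had signals of 791.4 and 965.9 and a ratio of −0.29, close to the SD of 0.28. Relative to the median of its chromosome, 11, Ogdh was at −0.35. The succinyl-CoA ligase genes Sucla2 and Suclg1 were at 0.22 and 0.31, and Cs, the citrate synthase, was at 0.11.

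Succinate dehydrogenase, which also serves as complex II of the respiratory chain, showed no common direction. Sdha, the flavoprotein subunit, was at −0.13 and Sdhb, the iron-sulphur subunit, at 0.00. The membrane anchors rested on probe sets that disagreed. The probe sets of Sdhc gave 0.53 and −0.24. Sdhd had signals of 3206 and 160.8 in the hPHD4 clone against 3646 and 323.2 in the control clone, ratios of −0.19 and −1.01. The 1.51-fold lower value of Sdhd thus came mostly from its dimmer probe set; read from the brighter probe set alone it was −0.19.

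Fumarase and the mitochondrial malate dehydrogenase close the cycle. Fh1, the fumarase, had signals of 4018 and 3042 and a ratio of 0.40 (1.32-fold), or 0.24 relative to the median of its chromosome, 1. Mdh1, the cytosolic malate dehydrogenase, had signals of 6243, 6987 and 5533 on its 3 measured probe sets in the hPHD4 clone and of 3057, 8339 and 4143 in the control clone. The probe sets of Mdh1 disagreed, at 1.03, −0.26 and 0.42 (SD 0.64), so that the mean of 0.40 gives no clear direction. Mdh2, the mitochondrial form, was at −0.07, with probe sets on both sides of 0. Relative to the median of its chromosome, 5, Mdh2 was at 0.12.

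**Figure D3:**
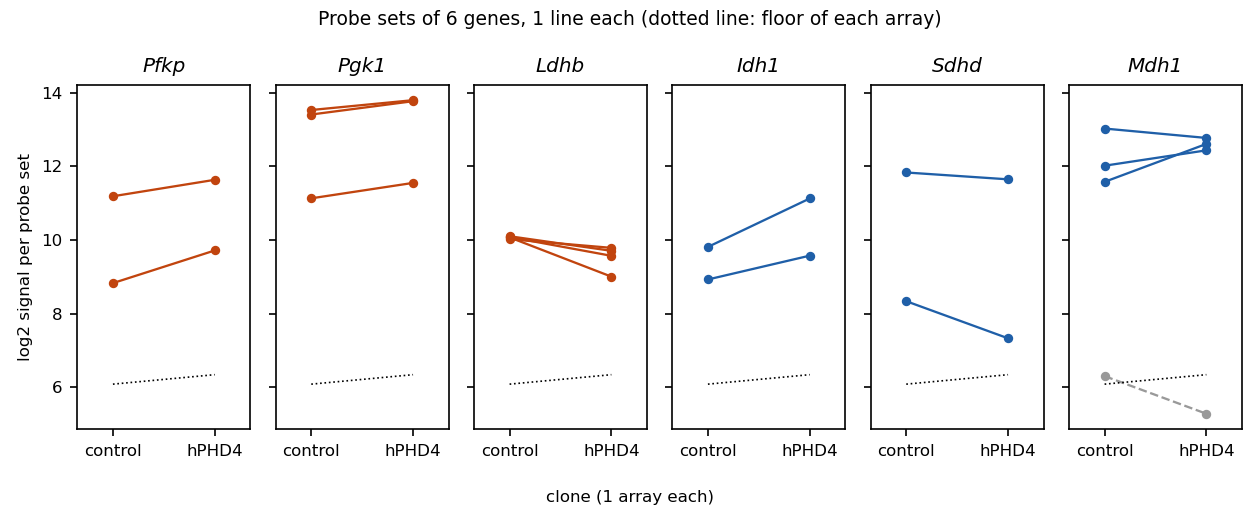
Log2 signal of every probe set of 6 genes (y axis) in the control and the hPHD4 clone (x axis), 1 line per probe set; the dotted line is the floor of each array and grey dashed lines are probe sets not measured. The lines of Pfkp, Pgk1 and Idh1 all rise to the right, those of Ldhb and Sdhd all fall, and those of Mdh1 cross.

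Agreement among probe sets was mixed over the whole set. Of the 22 genes with at least 2 measured probe sets, 8 had all of them above 0, 6 had all below 0 and 8 had both signs. The same shares over all 2800 measured genes with at least 2 probe sets are not given here, so these counts describe the members only. Those with all above 0 were Pfkl, Pfkp, Tpi1, Pgk1, Pdha1, Dlat, Idh1 and Idh3a. Those with all below 0 were Ldhb, Tkt, Idh3b, Idh3g, Sdha and Sdhd. Brightness moved with the ratios: the median log2 ratio of all genes was 0.13 in the dimmest group and −0.03 in the brightest, where 46.1% of genes lay above 0. The enzyme genes were bright, with 33 of 40 in the brightest group, and of these 24 were above 0 (72.7%), with a median of 0.16. Of these 33, 2 were at least 1.5-fold higher (6.06%, against 3.38% of all genes in the brightest group) and 1 was at least 1.5-fold lower (3.03%, against 4.43%).

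**Figure D4:**
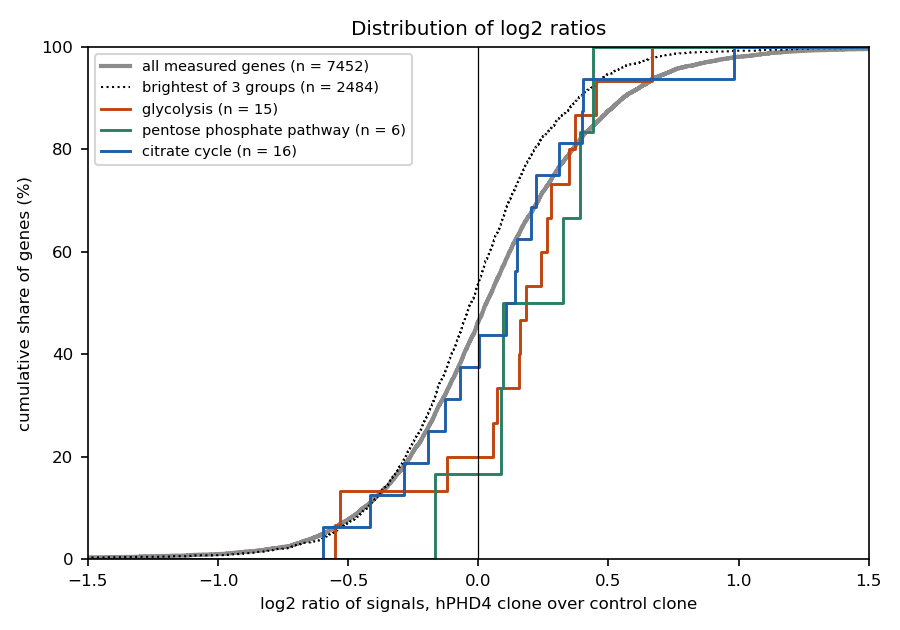
Cumulative share of genes (y axis, percent) against the log2 ratio of hPHD4 clone over control clone (x axis), for all measured genes, the brightest group and the 3 larger pathway groups; values beyond the axis are not drawn. The glycolysis and pentose phosphate curves lie to the right of all measured genes around 0, with medians of 0.18 and 0.21 against 0.03, while the citrate cycle curve lies closer, with a median of 0.12.

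Other genes of these pathways, taken from lists of transport, regulation, ribose synthesis, pyruvate entry and the malate shuttle, were mixed. Of 63 such genes 33 were measured, 17 were above 0, and beyond 1.5-fold lay 1 on the higher and 4 on the lower side. These are shares of 51.5%, 3.03% and 12.1%, against 53.6%, 8.94% and 5.22% of all measured genes. For sugar and lactate transport, 5 of 6 measured genes were above 0 (83.3%) and the median was 0.38. Of these 6 genes, 3 were in the middle and 2 in the dimmest brightness group, and 62.2% of all genes in the dimmest group were above 0. Slc2a8, the glucose transporter GLUT8, had signals of 283.2 and 167.3 and a ratio of 0.76 (1.69-fold). On the other side, Bsg, the basigin chaperone of lactate transporters, had signals of 2158 and 3220 and a ratio of −0.58.

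The regulators and further isoforms of glycolysis had a median of 0.03 over 7 measured genes. Fbp2, the muscle fructose bisphosphatase of gluconeogenesis, had signals of 149.1 and 289.3 and a ratio of −0.96 (1.94-fold lower). The highest was Pfkfb3, which makes the activator of phosphofructokinase, at 313.7 against 235.3 and a ratio of 0.42. Pyruvate entry had a median of −0.10 over 6. Mpc1, a subunit of the mitochondrial pyruvate carrier, had signals of 1557 and 2504 and a ratio of −0.69 (1.61-fold lower). Pck2, the mitochondrial PEP carboxykinase, had a ratio of −0.70 (1.62-fold lower). Pdk1, the kinase that switches off pyruvate dehydrogenase and a known HIF-1 target, was the highest of that list, at 934.4 against 666.8 and a ratio of 0.49. The further genes of the citrate cycle and the malate shuttle had a median of −0.18 over 12, with 5 above 0 (41.7%, against 53.6% of all measured genes). Suclg2, the GTP-linked succinyl-CoA ligase subunit, had signals of 657.3 and 1075 and a ratio of −0.71 (1.64-fold lower). Me1, the cytosolic malic enzyme that yields NADPH, was the highest, at 5186 against 3565 and a ratio of 0.54. For ribose synthesis, Prps2 was at 0.32 and Prps1 at −0.23.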

How the data were processed

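RNA of 2 LM8 clones, 1 hPHD4 and 1 control, was hybridised to 1 Affymetrix mouse array each. The deposited log2 values are MAS5 signals per probe set, per the submitters' processing notes; its version is not given in the sources used here. That the log base is 2 and that each array was scaled to a common target was read from the values. Genes were assigned through the platform annotation: of the non-control probe sets 20380 had 1 symbol, 691 several and 1555 none. Of those with 1 symbol, 20351 were matched by gene number to RefSeq genes of GRCm38.p6 for chromosomes. No scaling was added. Log2 ratios, the floor at the 40th percentile and the 1.5-fold count (Python 3.11.15, pandas 2.3.3) were tested on simulated data. The planted changes were at least 2-fold, larger than the value of any member, so recovery of smaller changes was not tested. Promoter windows came from RefSeq (GRCm38.p6).

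All 45 members are described; other pathway genes are named when beyond 1.5-fold, and otherwise as the farthest of each list above and below 0. The members and lists were chosen with earlier results of these data known. With 1 array per group no test was possible, and precision is limited by the number of arrays. Alternatives changed the floor, the choice of probe sets, the scaling (loess by statsmodels 0.14.6) and the fold threshold. Of the named lists, adipocyte markers had 0 of 3 on the array measured in both clones, endothelial markers 1 of 4 and skeletal muscle markers 1 of 5.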

Additional observations from a re-analysis of the deposited data

How the results depend on the processing

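The median log2 ratio of the 40 measured genes stayed between 0.14 and 0.17 under the 11 alternatives to floor, probe set choice and scaling. Between 27 and 31 of 38 to 41 members were above 0. The share of all genes above 0 was 53.6% as measured and ran from 49.3% after quantile normalization to 57.8% with signals as deposited. It was 36.9% with signals raised to a common floor, where probe sets dim in both clones had a ratio of 0. The medians of glycolysis (0.15 to 0.27), the pentose phosphate pathway (0.18 to 0.27) and pyruvate dehydrogenase (0.19 to 0.29) kept their sign in all of them. The citrate cycle median of 0.12 turned to −0.047 with the brightest probe set per gene and to −0.071 once _x_at and _s_at probe sets were left out; the genes Mdh1 and Sdhc turned to −0.26 and −0.24 in both settings. The count at least 1.5-fold higher, 2 of 40, was 11 at a log2 threshold of 0.32 (22.6% of all measured genes passed it) and 0 at 2-fold. It was 4 of 41 with dim signals kept as deposited (24.2% of all genes) and 3 of 41 with a floor at the 20th percentile (16.4%). With the brightest probe set it was 1 of 40 (9.51%), and without _x_at and _s_at probe sets 1 of 38 (9.11%). The count at least 1.5-fold lower, 1 of 40, was 4 at the log2 threshold of 0.32 (15.9% of all measured genes passed it) and 0 at 2-fold. It was 0 with the brightest probe set (6.25% of all genes) or a floor at the 60th percentile (4.58%). Without _x_at and _s_at probe sets it was 2 of 38 (5.47%), and after subtraction of chromosome medians 2 of 40 (5.06%). Relative to its chromosome, Ldha lay at −0.03, while quantile normalization and loess correction each gave 0.27. Pgam1 ran from 0.15 relative to its chromosome to 0.54 after quantile normalization, and Pgk1 from 0.27 to 0.43. Idh1 had no value without _s_at probe sets and was otherwise between 0.82 and 1.32, Pfkp lay between 0.45 and 0.68 and Ldhb between −0.65 and −0.40 in every alternative. No paired analysis was possible because each group holds 1 array.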
